A study of Mus musculus with 18 samples.

Results

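The genes described here are the iron and 2-oxoglutarate dependent dioxygenases other than the HIF prolyl hydroxylases, a list of 43 genes chosen because a hydroxylase inhibitor could touch their enzymes. They were found by gene symbol on mouse bead arrays. Of the 43 genes, 35 had a probe under their symbol and 26 were detected well enough to be tested, out of 8922 genes tested in all. The 26 comprised 9 of 14 JmjC histone demethylases, 2 of 3 other JmjC proteins, 6 of 9 AlkB family members, 5 of 6 collagen hydroxylases, 4 of 8 other hydroxylases and 0 of 3 TET enzymes.

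These enzymes use iron, oxygen and 2-oxoglutarate to hydroxylate a protein, nucleic acid or small molecule, releasing succinate and carbon dioxide, and many of them are inhibited by compounds that bind the iron. JmjC demethylases remove methyl groups from histones, TET enzymes oxidise methylated cytosine, AlkB proteins remove alkyl groups from DNA and RNA, and the collagen hydroxylases modify proline and lysine in procollagen. Several of them, including Kdm3a, Kdm4b, P4ha1, P4ha2, Plod1 and Plod2, are known to be transcribed at a higher rate when HIF is active.

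The study measured total RNA of cultured mouse neurons on 18 arrays in 6 groups of 3. The groups were neurons with HCA (homocysteate, a glutamate analogue that depletes glutathione), with HCA and 0.1 µM adaptaquin, with HCA and 1 µM adaptaquin, with 0.1 µM adaptaquin alone, with 1 µM adaptaquin alone, and untreated. Adaptaquin is an inhibitor of the oxygen-sensing prolyl hydroxylases, and the study asked what it does to neurons in an ATF4-dependent form of death. The sources used here do not give the mouse strain, the age of the neurons or the length of treatment. No label says that replicates were separate cultures, so the spread behind the p-values is that between these samples and may be technical.

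The 17 arrays that entered the fit had upper quartiles of intensity of 333 to 563 and detected 42.8% to 47.6% of their probes. Replicate 3 of the HCA-only group carries the word outlier in its title, with an upper quartile of 241 and 40.9% detected. It was left out, so the HCA-only group had 2 arrays. Among markers of neurons, Rbfox3, Map2, Tubb3, Syt1 and Stmn2 were detected on all 17 arrays, and the probe of Snap25 did not pass the detection filter. Markers of other cells were also measured: 6 astrocyte markers passed the filter, though Gfap was detected on 3 arrays, and so did 4 of microglia, 2 of oligodendrocytes, 3 of vessel and fibroblast cells and 5 of proliferating progenitors. In RNA from a whole culture, fewer cells of a type and less RNA per cell cannot be told apart.

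Levels are normalized log2 intensities, and a change is the difference between 2 groups on that scale. A gene was called where its p-value in the limma fit of all 8922 genes, adjusted by the Benjamini-Hochberg method within that comparison, was under 0.05. Adjusted p-values here are from that fit. Each gene's level was compared only with itself, since probes differ in brightness.

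Of the members without a test, 8 had no probe under their symbol in the annotation used and were not analysed here: Kdm2a, Kdm3b, Kdm5a, Tet1, Tet2, Alkbh1, Alkbh3 and Alkbh6. Another 9 had a probe that did not pass the filter, which asked for a detection p-value below 0.01 on 2 or more of these 17 arrays. Jmjd4 was above background on 1 array, and Kdm4d, Jmjd1c, Tet3, P4ha3, Phyh, Bbox1, Tmlhe and Tyw5 on 0 arrays. Tet3, the only TET enzyme with probes, was not above background on either of its 2 probes. For these genes no level can be given in any group. Among the 26 tested genes, 22 were detected on all 17 arrays. Phf8, a demethylase of inactive chromatin marks, was detected on 3 arrays, Alkbh8, which modifies the wobble base of transfer RNA, on 12, Plod1 on 14 and Asph on 15.

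The heat map of the 26 genes sets each gene's arrays against its own mean.

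**Figure D1:**
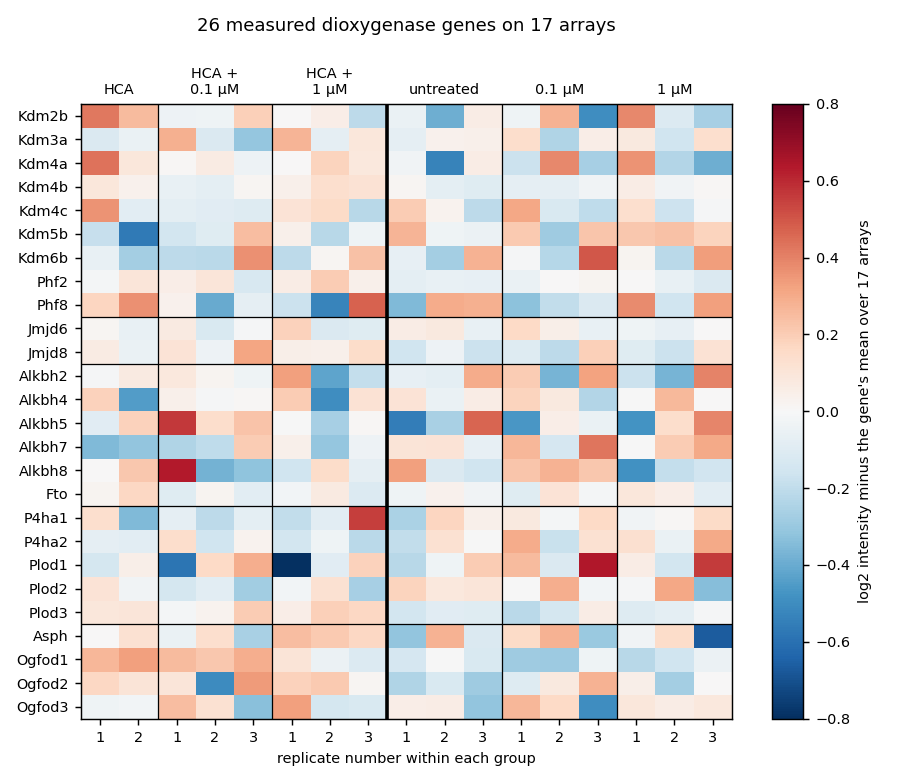
Log2 intensity of each of the 26 tested genes (rows, grouped by role) on each of the 17 arrays (columns, by group and replicate number), minus that gene's mean over the 17 arrays. Red is above and blue below the gene's mean, and differences beyond 0.8 have the end colour. Ogfod1 and Plod3 are red on most arrays with HCA and blue on most without it, Alkbh7 runs the other way, and for all 26 genes the values with and without HCA overlap. The share of all tested genes that overlap in this way was not counted.

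With the 3 adaptaquin doses pooled, HCA moved 3 of the 26 genes. Ogfod1, a prolyl hydroxylase of a ribosomal protein, and Plod3, a lysyl hydroxylase and glycosyltransferase of collagen, rose, and Alkbh7, a mitochondrial AlkB protein linked to programmed necrosis, fell. Of all 8922 genes 11.2% passed the same test, 475 upward and 524 downward, so 3 of 26 members, or 11.5%, is a share near the background and not a result about the members as a set. Their median change was 0.0038 on the log2 scale, with 14 positive and 12 negative values, against a median of -0.0068 over all genes. The members' changes ran from -0.31 to 0.32. At an unadjusted p under 0.05 there were 4 members, where 24.9% of all genes passed.

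The start regions of the 3 called genes are shown, with that of P4ha1, a collagen prolyl hydroxylase known as a HIF target, beside them. They are RefSeq windows of GRCm38.p6, 300 bases that run from upstream of the annotated start to just past it, printed 5′ to 3′ on the gene's strand. Capitals mark the HIF core, ACGTG or GCGTG on either strand, the letters searched for because HIF is known to bind them. The windows are chr8:94036948-94037247 (plus strand) for Ogfod1, chr5:136986769-136987068 (plus) for Plod3, chr17:56997089-56997388 (plus) for Alkbh7 and chr10:59323046-59323345 (plus) for P4ha1.
Ogfod1: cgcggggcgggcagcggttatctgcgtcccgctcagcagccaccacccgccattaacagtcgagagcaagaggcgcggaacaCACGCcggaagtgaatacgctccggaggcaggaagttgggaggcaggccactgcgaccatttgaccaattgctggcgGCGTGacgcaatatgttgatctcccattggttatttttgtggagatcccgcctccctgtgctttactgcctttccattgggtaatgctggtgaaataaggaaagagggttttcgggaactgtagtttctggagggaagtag
Plod3: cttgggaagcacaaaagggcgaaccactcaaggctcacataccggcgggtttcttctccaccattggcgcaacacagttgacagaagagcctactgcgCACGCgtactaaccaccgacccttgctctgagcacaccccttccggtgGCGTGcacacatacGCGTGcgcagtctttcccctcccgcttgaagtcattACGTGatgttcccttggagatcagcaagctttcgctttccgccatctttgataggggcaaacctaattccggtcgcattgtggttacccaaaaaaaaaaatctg
Alkbh7: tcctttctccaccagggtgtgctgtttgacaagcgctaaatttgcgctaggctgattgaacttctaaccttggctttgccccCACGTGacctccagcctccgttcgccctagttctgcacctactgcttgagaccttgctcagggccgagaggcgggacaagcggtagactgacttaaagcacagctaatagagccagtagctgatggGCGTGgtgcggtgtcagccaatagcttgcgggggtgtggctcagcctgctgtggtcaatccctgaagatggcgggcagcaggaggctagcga
P4ha1: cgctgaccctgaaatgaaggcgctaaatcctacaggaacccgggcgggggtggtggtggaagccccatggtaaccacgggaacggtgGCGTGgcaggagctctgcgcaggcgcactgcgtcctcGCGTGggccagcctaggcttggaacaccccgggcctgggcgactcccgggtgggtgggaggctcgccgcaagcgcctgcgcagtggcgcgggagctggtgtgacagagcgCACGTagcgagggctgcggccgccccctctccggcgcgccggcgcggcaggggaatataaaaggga

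The core was found 2 times in the Ogfod1 window, 4 times in that of Plod3, 3 times in that of Alkbh7 and 3 times in that of P4ha1. In the Alkbh7 window, 2 of the 3 matches overlap as CACGTG, read once on each strand. Of the 26 tested genes, 21 had a window, and 16 of them had the core in at least 1 window. Of their 29 windows 65.5% held it, against 43.8% of all 32851 windows. The latter include genes not detected here and were not matched for base content. Some windows of 1 gene overlap, as for Kdm3a. The difference between these shares was not tested, so it is not a result about the members. The composite element of ATF4 and C/EBP, TGATGNAA on either strand, was in 0 of the 21 genes' windows and in 3.97% of all. The cAMP response element, TGACGTCA, which reads the same on both strands and does not overlap the HIF core letters, was found for 1 of the 21 genes and in 1.79% of all windows. These matches describe letters in 300 bases and say nothing of binding.

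Ogfod1 had the smallest p of the members in the pooled HCA comparison. Its log2 intensity was 7.44 and 7.51 on the 2 HCA arrays, 7.43, 7.39 and 7.47 with HCA and 0.1 µM adaptaquin, and 7.28, 7.13 and 7.07 with HCA and 1 µM. Without HCA it was 7.05, 7.17 and 7.05 in untreated neurons, 6.89, 6.89 and 7.14 with 0.1 µM adaptaquin, and 6.96, 7.02 and 7.13 with 1 µM. Every array with HCA and 0 or 0.1 µM adaptaquin lay above all 9 arrays without HCA, while those with HCA and 1 µM overlapped them. The pooled rise was 0.32 ± 0.055 (SE; 8 arrays against 9; adjusted p = 0.0018), 1.25-fold, and the gene was higher with HCA in 7 of 8 same-numbered pairs. The share of all genes with such separation, or with as many pairs in 1 direction, was not counted, here or for the genes below. In the authors' log2 table, which has no background correction, the rise was 0.18. Leaving out any 1 of the 17 arrays kept the call, but leaving out all arrays of replicate 1 gave an adjusted p of 0.086, of replicate 2 0.14 and of replicate 3 0.0078.

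Plod3 had levels of 11.18 and 11.19 with HCA, 11.08, 11.12 and 11.30 with HCA and 0.1 µM adaptaquin, and 11.15, 11.28 and 11.26 with HCA and 1 µM. Without HCA its levels were 10.95, 11.00 and 11.00 in untreated neurons, 10.87, 10.95 and 11.15 with 0.1 µM, and 10.99, 11.02 and 11.09 with 1 µM. Within each dose the HCA arrays were higher in all 8 same-numbered pairs, although the highest array with 0.1 µM alone overlapped the lower arrays with HCA. The pooled rise was 0.19 ± 0.053 (adjusted p = 0.031), 1.14-fold. The call was kept in 8 of 17 fits without 1 array, with adjusted p-values of 0.015 to 0.081, and lost without all arrays of replicate 1, 2 or 3 (adjusted p = 0.20, 0.39 and 0.069). Of single arrays, it was lost without replicate 1 of the untreated arrays, replicates 1 and 2 of HCA, replicates 1 and 2 of 0.1 µM, replicate 2 of 1 µM, replicate 3 of HCA with 0.1 µM, and replicates 2 and 3 of HCA with 1 µM.

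Alkbh7 had levels of 9.27 and 9.32 with HCA, 9.39, 9.42 and 9.83 with HCA and 0.1 µM adaptaquin, and 9.67, 9.32 and 9.59 with HCA and 1 µM. Without HCA its levels were 9.73, 9.74 and 9.56 in untreated neurons, 9.90, 9.50 and 10.06 with 0.1 µM, and 9.62, 9.83 and 9.93 with 1 µM. The HCA-only arrays lay below all 9 arrays without HCA, and those with adaptaquin overlapped them. The pooled change was -0.31 ± 0.093 (adjusted p = 0.047), 0.81-fold, with 7 of 8 pairs lower. Its adjusted p was just under the threshold, and the call was kept in 4 of 17 fits without 1 array, namely without replicate 2 of 0.1 µM, replicate 1 of 1 µM, replicate 3 of HCA with 0.1 µM or replicate 1 of HCA with 1 µM. Over the 17 fits its adjusted p ran from 0.015 to 0.11, and without all arrays of replicate 1, 2 or 3 it was 0.27, 0.28 and 0.077.

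Kdm5b, a demethylase of a histone mark found at active promoters, was not called in the pooled HCA comparison, though it was with replicate number as a term of the model. Its levels were 7.65 and 7.28 with HCA, 7.69, 7.74 and 8.08 with HCA and 0.1 µM, and 7.88, 7.62 and 7.81 with HCA and 1 µM, against 8.11, 7.81 and 7.79 in untreated neurons, 8.05, 7.55 and 8.06 with 0.1 µM, and 8.06, 8.07 and 8.02 with 1 µM. The values with and without HCA overlapped, and 6 of 8 pairs were lower with HCA. The pooled change was -0.26 ± 0.093 (adjusted p = 0.098), and with the replicate block it was -0.24 (adjusted p = 0.040). In that blocked fit 4 of 26 members were called, where 20.6% of all genes were. Ogfod1 and Plod3 were the 2 called upward, and Alkbh7 and Kdm5b the 2 called downward. In a blocked fit of each detected probe, adjusted p was 0.0013 for Ogfod1, 0.0057 for Plod3, 0.033 for Alkbh7 and 0.046 for Kdm5b. The fits with arrays left out, given above for Ogfod1, Plod3 and Alkbh7, had no such block. The calls lost there are thus those of a fit that ignores the replicate number. Without the block, Kdm5b was also called when replicate 2 of 0.1 µM adaptaquin was left out (adjusted p = 0.029), and in 0 of the other 16 fits without 1 array.

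**Figure D2:**
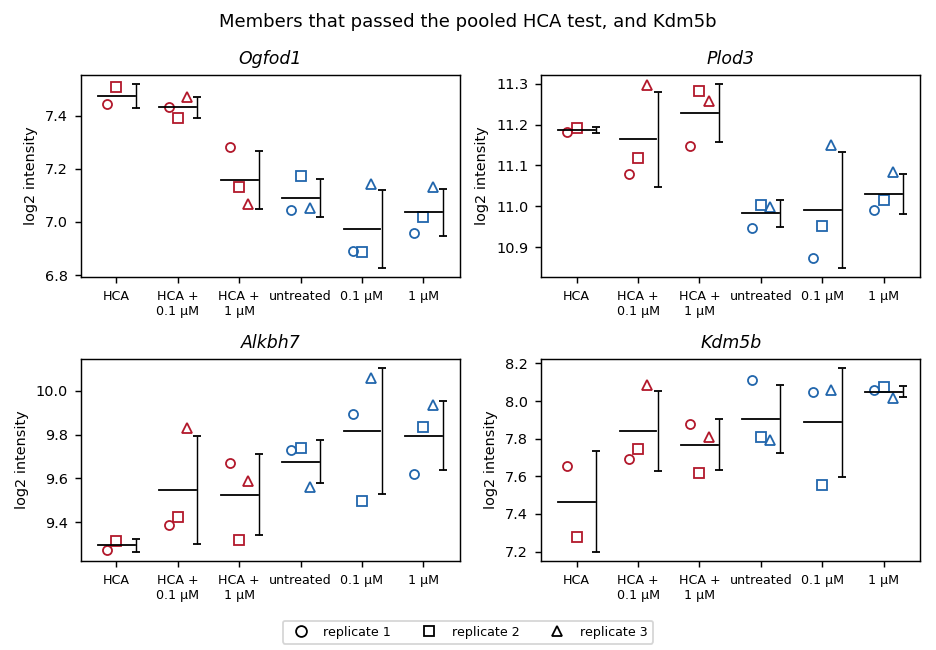
Log2 intensity of Ogfod1, Plod3, Alkbh7 and Kdm5b on each array. Groups with HCA are red and stand left of those without it in blue; marker shape gives the replicate number, lines the group mean and bars the SD (n = 3, 2 for HCA). Ogfod1 stands at 7.39 to 7.51 with HCA at 0 and 0.1 µM adaptaquin and at 7.07 to 7.28 with HCA and 1 µM.

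Marker lists of other cells moved with HCA in the same fit. Of 6 astrocyte markers 4 fell (Aqp4, Aldh1l1, Slc1a3 and Aldoc, by 0.40 to 0.49 on the log2 scale), and of 5 progenitor markers 3 fell (Top2a, Nes and Hes5). Of all genes 11.2% were called in the pooled HCA comparison, and 20.6% with the replicate block. The summed log2 level of the progenitor list ran from 45.4 to 47.3 on arrays with HCA and from 47.3 to 49.3 without, with no overlap. How often other lists of this size separate was not counted. That of the astrocyte list ran from 49.8 to 52.0 with HCA and from 51.6 to 54.6 without. Of 2 oligodendrocyte markers Olig1 fell, and of 3 vessel and fibroblast markers Dcn rose, while 0 of 5 neuron markers and 0 of 4 microglia markers were called (2 and 0 at an unadjusted p under 0.05). With the replicate block Syt1, of neurons, and Mbp, of oligodendrocytes, were called upward (adjusted p = 0.022 and 0.032) and the astrocyte marker Gfap downward (adjusted p = 0.020). The summed level of the neuron markers ran from 53.7 to 55.0 with HCA and from 53.6 to 55.3 without, and that of the microglia markers from 24.7 to 27.2 with HCA and from 23.2 to 25.8 without. For oligodendrocytes it ran from 18.1 to 19.0 with HCA and from 18.3 to 19.4 without, and for vessel and fibroblast cells from 17.5 to 20.3 with HCA and from 17.3 to 19.5 without, so these 4 lists overlapped. The part of other cells in the members' HCA changes was not tested.

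In the pooled HCA comparison the JmjC demethylases had 0 calls among 9 genes, where 11.2% of all genes were called. Of the 9, 1 had an unadjusted p under 0.05 (Kdm5b), against 24.9% of all genes, and their median change was 0.025. With so few genes, the counts by family here and below are not results about the families. Kdm3a, which removes a repressive histone mark, ranged from 9.83 to 10.42 with HCA (median 10.07) and from 9.90 to 10.28 without (median 10.18), and its change was -0.015 ± 0.089, which turned to 0.022 with arrays scaled to one median. Its 2 other probes gave -0.17 and 0.021, with 0 of the 3 probes called. Kdm6b, which removes a Polycomb mark, ranged from 11.01 to 11.64 with HCA (median 11.15) and from 11.01 to 11.78 without (median 11.27). All 5 replicate 3 arrays of Kdm6b, at 11.52 to 11.78, stood above all 12 arrays of replicates 1 and 2, at 11.01 to 11.31, whatever the treatment. Its HCA change was -0.095 ± 0.13, with a blocked SE of 0.059.

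Among the other members, Jmjd8, an endoplasmic reticulum JmjC protein, Phf2, a JmjC chromatin protein, and Ogfod2, a predicted hydroxylase, were not called. Their changes were 0.14 ± 0.071 (adjusted p = 0.24), 0.095 ± 0.050 (adjusted p = 0.26) and 0.15 ± 0.10 (adjusted p = 0.42). Each was higher with HCA in 7 of 8 pairs, but how often other genes reach that count was not determined. The AlkB family had 1 call in 6 genes, Alkbh7, where 11.2% of all genes were called. Fto, an RNA demethylase, ranged from 12.70 to 12.97 with HCA (median 12.80) and from 12.71 to 12.91 without (median 12.79), and its interval of -0.11 to 0.11 was among the narrowest. Alkbh5, which also acts on methylated adenosine in RNA, ranged from 6.40 to 7.23 with HCA (median 6.75) and from 6.12 to 7.14 without (median 6.62), and its interval of -0.15 to 0.50 was wide.

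Of the 5 collagen hydroxylases, Plod3 was called, where 11.2% of all genes were. The other 4 had negative HCA changes of -0.27 to -0.082, 0 of them called. Plod2, whose product sets the hydroxylation of collagen cross-links, was lower with HCA in 7 of 8 pairs, at -0.13 ± 0.088 (adjusted p = 0.43). Asph, an aspartyl hydroxylase, had 2 probes past the filter, with changes of 0.13 and -0.17 and neither called. Among the hydroxylases outside these families Ogfod1 was called, and the change of Ogfod3 was 0.0049.

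At single doses few genes could be called. Without adaptaquin, 0 of 26 members passed in limma, where 0.751% of all genes did, and 3 had an unadjusted p under 0.05 (11.5% of all genes): Ogfod1 at 0.38 ± 0.10, Kdm5b at -0.44 ± 0.17 and Alkbh7 at -0.38 ± 0.17, with adjusted p-values of 0.12, 0.33 and 0.42. The members' median was 0.097, against -0.014 over all genes, but it was -0.021 without replicate 1 of the untreated arrays, 0.043 without replicate 2 of HCA and 0.032 in the authors' log2 table. At 0.1 µM adaptaquin 1 member passed, Ogfod1 at 0.46 ± 0.092 (adjusted p = 0.020), where 1.91% of all genes did. That call was lost without replicate 1 or 2 of 0.1 µM (adjusted p = 0.087 and 0.098) or replicate 1, 2 or 3 of HCA with 0.1 µM (0.057, 0.060 and 0.073), and in the authors' log2 table the rise was 0.25. At 1 µM 0 members passed in limma, where 1.19% of all genes did, and 1 had an unadjusted p under 0.05, Plod3 at 0.20 ± 0.088 (adjusted p = 0.40). With the replicate block the members called were 0, 1 and 0 at 0, 0.1 and 1 µM, where 2.82%, 5.97% and 4.51% of all genes were called.

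**Figure D3:**
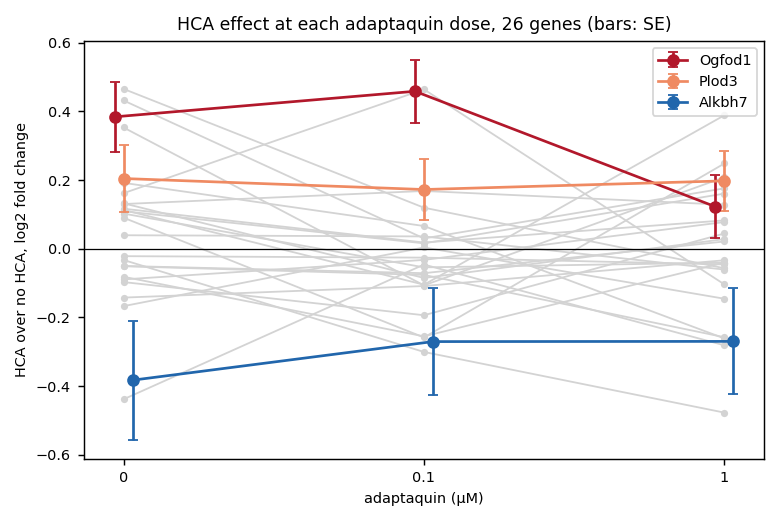
Change with HCA (log2, HCA over no HCA) at 0, 0.1 and 1 µM adaptaquin for the 26 genes; grey lines are the other 23 genes, and bars are SE. Plod3 stays at 0.17 to 0.20 and Ogfod1 stands at 0.38, 0.46 and 0.12.

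Adaptaquin at 1 µM called 0 members in any comparison. Without HCA 0 of 26 were called by limma (0 at an unadjusted p under 0.05, against 2.22% of all genes), where 0.146% of all genes, 13 genes, were called, and Alkbh8 had the smallest p of the members, at -0.29 ± 0.22 (adjusted p = 1.0). With HCA 0 were called, where 0% of all genes were, and 1 member had an unadjusted p under 0.05, against 2.73% of all genes. Pooled over HCA, 0 were called, where 0.101% of all genes were, and again 1 member had an unadjusted p under 0.05, against 3.52% of all genes: Ogfod1, at -0.19 ± 0.069 (adjusted p = 1.0). Pooled at 0.1 µM, 0 members (0 at an unadjusted p under 0.05, against 1.86% of all genes) and 0% of all genes were called, and Phf8 had the smallest p of the members, at -0.35 ± 0.18 (adjusted p = 1.0). Phf8 was detected on 1 untreated array, 1 with HCA alone and 1 with 1 µM adaptaquin alone, and on 0 arrays with 0.1 µM. Its value therefore compares levels near background and is not read as a fall. With the replicate block 0 members were called in each of these comparisons, where 0.235% of all genes were called without HCA, 0.0112% with HCA, 0.224% pooled at 1 µM and 0% pooled at 0.1 µM.

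The 95% intervals of the pooled 1 µM effect lay within 1.5-fold in either direction for all 26 members, as for 90.4% of all genes. The interval reaching furthest from 0 was that of Alkbh8, -0.57 to 0.14 on the log2 scale. Without HCA, 22 of 26 intervals lay within 1.5-fold (77.8% of all genes) and with HCA 14 of 26 (67.2%), and the interval of Plod1 with HCA, -1.01 to 0.47, reached furthest. At 0.1 µM, 24 of 26 pooled intervals lay within 1.5-fold (92.9% of all genes).

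**Figure D4:**
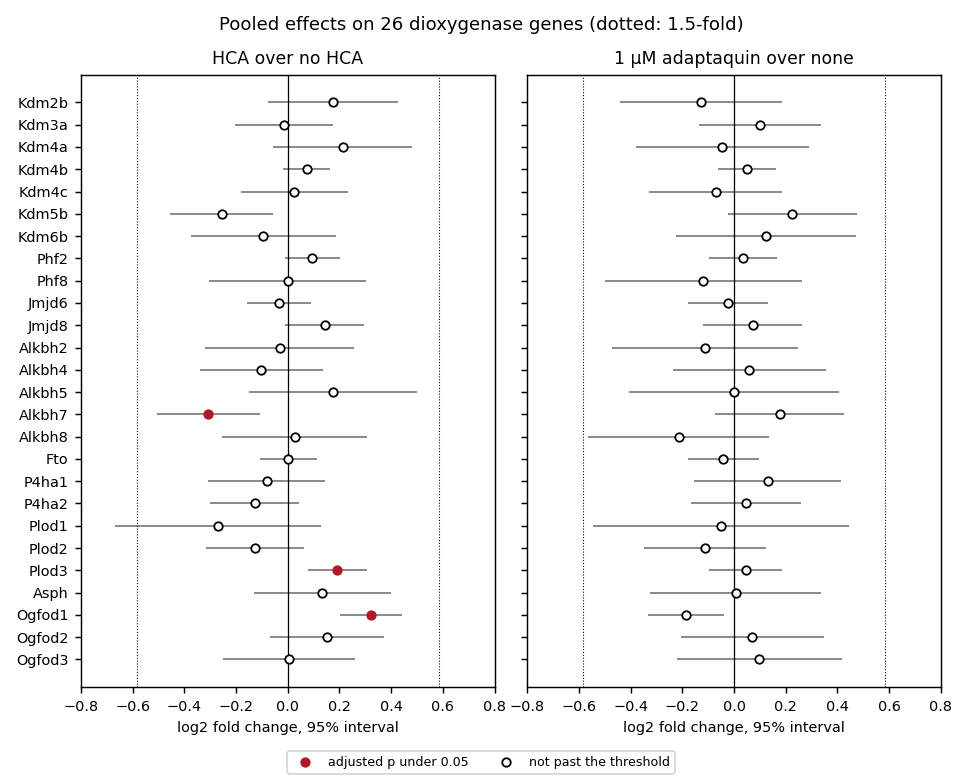
Pooled change with HCA (left) and with 1 µM adaptaquin (right) for the 26 genes, as log2 fold change with its 95% interval. Filled red points passed an adjusted p of 0.05; dotted lines mark 1.5-fold. Ogfod1 at 0.32, Plod3 at 0.19 and Alkbh7 at -0.31 are filled on the left, and 0 genes on the right.

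Ogfod1 was again the member with the smallest p with 1 µM adaptaquin and HCA. It averaged 7.16 ± 0.11 with HCA and 1 µM adaptaquin (SD, n = 3) and 7.48 ± 0.045 with HCA alone (n = 2). The change of -0.32 ± 0.10 had an unadjusted p of 0.0080 in limma and an adjusted p of 0.998. In the absence of HCA the means were 7.04 ± 0.088 with 1 µM adaptaquin and 7.09 ± 0.072 in untreated neurons, a change of -0.055 ± 0.092. The interaction, the test of whether these 2 changes differed, gave -0.26 ± 0.14 (unadjusted p = 0.078, adjusted p = 1.0), so a difference in Ogfod1's response was not shown. For the interaction 0 members were called in limma (0 at an unadjusted p under 0.05, against 1.73% of all genes), as were 0% of all genes and, with the replicate block, 0 members. The HCA comparisons and the adaptaquin comparisons with HCA use the same arrays, so these Ogfod1 values are not independent of its HCA change.

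The 6 members known as HIF-induced genes were tested because stabilised HIF is the known outcome of inhibiting the prolyl hydroxylases. None of the 6 was called with adaptaquin or HCA in the 9 comparisons. With 1 µM adaptaquin, pooled over HCA, their changes ran from -0.11 to 0.13, 4 positive and 2 negative, with a median of 0.048, against 0.0012 over all genes. P4ha1 ranged from 5.74 to 6.49 on the 6 arrays with 1 µM (median 5.93) and from 5.58 to 6.11 on the 5 arrays without adaptaquin (median 5.98), a change of 0.13 ± 0.13. P4ha1 was detected on all 17 arrays used. On the array titled as an outlier it read 6.10 and was not detected, so its levels are near background. P4ha2, its isoform, ranged from 6.39 to 6.90 with 1 µM (median 6.56) and from 6.41 to 6.73 without (median 6.53), a change of 0.047 ± 0.100 that turned to -0.052 under median scaling. Plod2 ranged from 7.80 to 8.45 with 1 µM (median 8.13) and from 8.11 to 8.32 without (median 8.24), a change of -0.11 ± 0.11. Kdm3a ranged from 9.98 to 10.41 with 1 µM (median 10.22) and from 10.02 to 10.18 without (median 10.08), a change of 0.100 ± 0.11. The 2 other Kdm3a probes gave 0.20 and -0.057, neither called. In each of these genes the arrays with and without adaptaquin overlapped, and the share of all genes that do so was not counted.

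**Figure D5:**
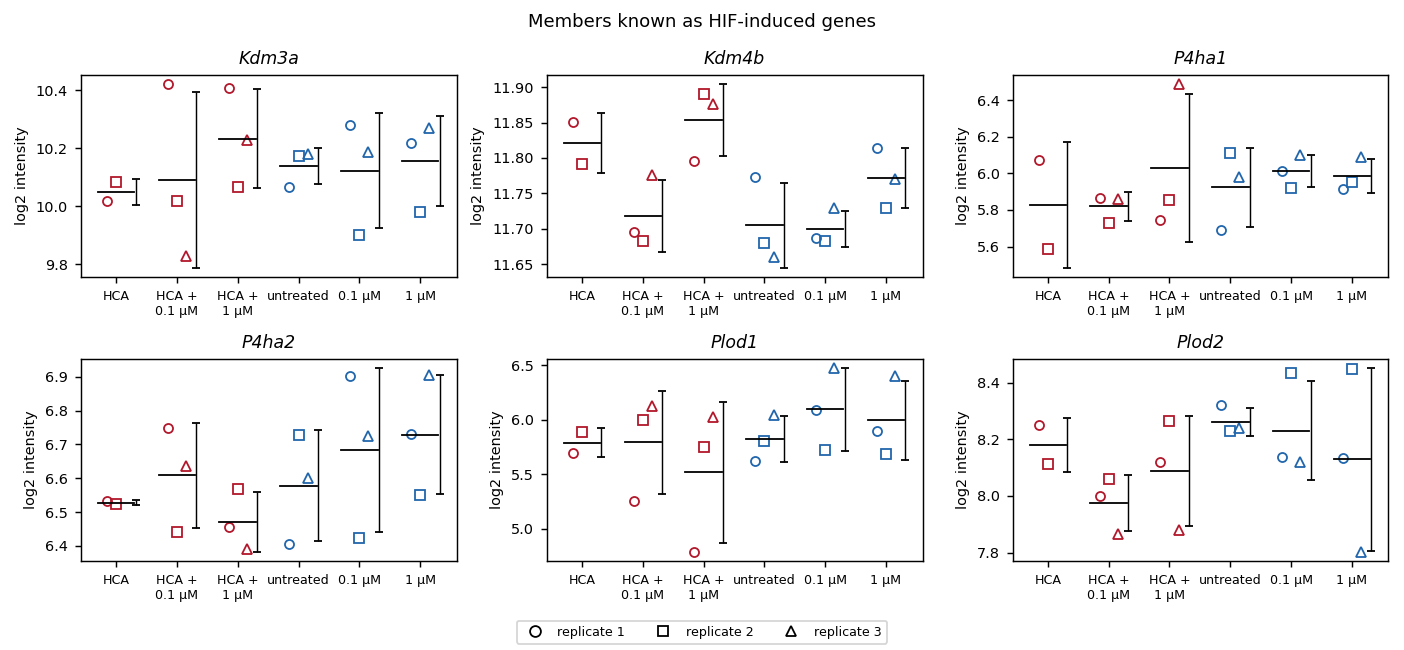
Log2 intensity of the 6 members known as HIF-induced genes on each array, drawn as groups with HCA (red) left of groups without (blue), with lines for group means and bars for SD. The arrays with 1 µM adaptaquin overlap those without adaptaquin in every panel, and the lowest Plod1 value, 4.79, is 1 array with HCA and 1 µM.

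The HIF prolyl hydroxylases themselves and other dioxygenases outside the list were set beside the members. Of 22 listed genes 15 were tested, and with HCA 0 rose and 1 fell in the pooled comparison. Of all genes 11.2% were called there, and 20.6% with the replicate block. The 1 that fell was Egln3, an oxygen sensor that HIF is known to induce. It changed by -0.59 ± 0.077 (adjusted p = 2.3e-04) in the pooled comparison and by -0.80 ± 0.13 at 0.1 µM adaptaquin (adjusted p = 0.0044). With the replicate block Hr, a nuclear JmjC corepressor, and Asphd2 were also called upward (adjusted p = 0.0032 and 0.036); without the block their changes were 0.23 ± 0.074 and 0.13 ± 0.059 (adjusted p = 0.061 and 0.18). Egln1 and Egln2 had values of -0.0033 ± 0.098 and -0.17 ± 0.10 with HCA. The pooled difference with 1 µM adaptaquin was -0.072 ± 0.12 for Egln1, 0.18 ± 0.13 for Egln2 and -0.11 ± 0.096 for Egln3, each with an adjusted p of 1.0.

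Enzymes that make or use 2-oxoglutarate, the shared cosubstrate, were also followed. Of 21 listed genes 18 were tested, and with HCA 3 rose and 0 fell in the pooled comparison, with a median of 0.057. That is 16.7% of the 18, where 11.2% of all genes were called, and the difference was not tested. With the replicate block 3 were called upward and 1 downward, where 20.6% of all genes were called. Gpt2, an alanine aminotransferase, rose by 0.94 ± 0.069 (adjusted p = 6.9e-07) and was called at each dose of adaptaquin. Got1, a cytosolic aspartate aminotransferase, rose by 0.55 ± 0.12 (adjusted p = 0.0084), and Idh2, the mitochondrial isocitrate dehydrogenase, by 0.50 ± 0.065 (adjusted p = 2.3e-04). Of 16 listed writers of methyl marks on histones, DNA or RNA, 12 were tested, and with HCA 1 rose and 1 fell, or 16.7%, against the same 11.2%. Dot1l, a histone methyltransferase, rose by 0.53 ± 0.085 (adjusted p = 0.0010), and Dnmt3b, a DNA methyltransferase, fell by 0.25 ± 0.059 (adjusted p = 0.013). Adaptaquin called 0 genes of these 3 lists in limma, and at most 1 gene of a list had an unadjusted p under 0.05 in any of these comparisons.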

How the data were processed

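The authors deposited probe intensity for 18 arrays, not normalized between arrays, with a detection p-value for each probe. A second table deposited by the authors holds log2 values of 17 arrays, which equalled a quantile normalization of the log2 intensities to within 5.0e-09. No scanner software is named (not given in the sources used here).

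The neqc function (limma 3.58.1, R 4.3.3) corrected the background using the detection p-values, added an offset of 16 and quantile-normalized all 18 arrays on the log2 scale. The array table holds 25697 probes, 23978 with 1 symbol, 1719 without and 0 with several; 23962 matched RefSeq of GRCm38.p6, which changed 0 symbols. The brightest probe past the filter stood for a gene. A model with 1 coefficient per group was fitted with lmFit and eBayes (11 residual and 3.22 prior degrees of freedom). The 9 two-sided contrasts were the HCA effect at each dose and pooled, the effect of 1 µM adaptaquin without HCA, with HCA and pooled, the pooled effect of 0.1 µM, and the interaction of HCA with 1 µM. Precision was limited by the number of arrays. The fit was tested on simulated data.

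Replicate numbers paired the arrays. Deviations from group means correlated at 0.238 to 0.626 (median 0.438) for 40 pairs of same-numbered arrays, all above 0.1, and 0 of 80 pairs with different numbers were above 0.1. Deviations sum to 0 within a group, so positive same-numbered correlations push those of different numbers down. The 80 pairs are not separate evidence of pairing. The replicate number was therefore tried as a block. Other alternatives were the authors' log2 table, scaling to one median, an offset of 50, no filter, detection on 8 arrays, the mean of detected probes, the outlier array included, and leaving out arrays; a test of each detected probe was added after seeing the data.

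The members and lists were chosen with earlier results of these data known. Values on every array, or their range, are given for called members and for Kdm3a, P4ha1, P4ha2, Plod2, Kdm6b, Tet3, Fto and Alkbh5, the smallest p of each contrast is named, and other genes are named where called in 3 lists (dioxygenases outside the members, 2-oxoglutarate enzymes and mark writers), with Egln1, Egln2 and Egln3. Other genes named in passing were chosen after their values were seen.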

Additional observations from a re-analysis of the deposited data

Results flagged for a closer look

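Replicate 3 of the HCA-only group, whose title calls it an outlier, was not used in the comparisons. Its log2 intensity of Ogfod1 was 7.31 and of Plod3 11.42, each above the highest untreated array (7.17 and 11.00). Its Alkbh7 value of 9.97 was also above the highest untreated array (9.74), although Alkbh7 was lower on the other 2 HCA arrays. Of the 26 tested members, this array lay above the highest untreated array for 13 and below the lowest for 6. It lay outside the range of the other 2 HCA arrays for 24. Values above the untreated arrays were thus common on this array, so they cannot show whether Ogfod1 or Plod3 rose with HCA.

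Fto was higher with HCA in both same-numbered pairs without adaptaquin (0.057 and 0.13 on the log2 scale) and lower in all 3 pairs at 0.1 µM (-0.088 to -0.0029). The mean pair difference at 0.1 µM minus that at 0 µM was -0.147, and this difference between doses was not tested. In limma the HCA change of Fto was 0.10 ± 0.096 without adaptaquin and -0.054 ± 0.086 at 0.1 µM, neither called. Fto was flagged from the pair differences of all 26 tested members. How often so few pairs give opposite signs by chance was not determined, so a dose-dependent response of Fto was not shown.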

How the results depend on the processing

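With arrays scaled to one median, 1 member was called in the pooled HCA comparison in place of 3 (Ogfod1, adjusted p = 0.036) and 0 at 0.1 µM adaptaquin in place of 1; the cause was not tested. Leaving out 1 array, or all arrays of 1 replicate number, gave 0 to 3 members in the pooled HCA comparison and 0 to 1 at 0.1 µM. In the other comparisons the members called stayed at 0 under all these settings. The replicate block added Kdm5b in the pooled HCA comparison and changed no other call of a member. Alkbh7 lost its call without the filter (adjusted p = 0.071), with median scaling (0.17), with the outlier array (0.21) and with each detected probe tested (0.052), and Plod3 with median scaling (0.12). Both also lost it without all arrays of replicate 1, 2 or 3. The members' median pooled HCA change ran from -0.032 to 0.047 over all settings.

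Small changes that were not called turned sign. The pooled HCA change of Kdm3a was 0.022 with median scaling and lay between -0.070 and 0.067 without single arrays or numbers. That of Fto was -0.0060 with the block, -0.016 with the outlier array, and -0.021 to 0.026 over the leave-outs. For Alkbh5 the leave-outs gave -0.044 to 0.35, and for P4ha1 -0.18 to 0.054. With 1 µM adaptaquin, pooled, P4ha2 was -0.052 with median scaling and -0.0039 with the outlier array, and Plod2 ran from -0.28 to 0.015 over the leave-outs.

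Over all genes the pooled HCA count of 999 became 418 with median scaling and 1842 with the block, and 147 to 1078 over the leave-outs. For the HCA effect without adaptaquin 67 became 39 with median scaling, 252 with the block, 115 in the authors' table and 114 with the outlier array. Leave-outs within the groups compared gave 8 to 65 (25 and 29 without replicate 1 and 2 of HCA, 44 and 41 without replicate 2 and 3 of untreated). For the HCA effect at 0.1 µM adaptaquin 170 became 54 with median scaling, 533 with the block and 111 without the filter, and at 1 µM 106 became 42 with median scaling and 402 with the block. Leave-outs gave 22 to 112 at 0.1 µM and 15 to 122 at 1 µM; leaving out any 1 of the 6 arrays compared at 0.1 µM lowered the count, the lowest being 81 without replicate 2 of HCA with 0.1 µM, and at 1 µM it was 44 and 46 without replicate 2 and 3 of HCA with 1 µM and 55 and 52 without replicate 2 and 3 of 1 µM. For 1 µM adaptaquin without HCA 13 became 0 with median scaling, 21 with the block and 7 without the filter. Pooled, 9 became 2 with median scaling and 20 with the block, and with HCA 0 became 1 with the block.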
